A study of Homo sapiens with 12 samples.

Results

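The promoters of 5 housekeeping genes, ACTB, GAPDH, EEF1A1, HSP90AB1 and RPLP0, were examined in 12 peak lists of histone H3 lysine 27 acetylation (H3K27ac) from human cancer cell lines. Members were all peaks lying, by at least 1 base, within 3 kb of the 5 annotated genes in the hg19 build. They numbered 93 of the 233262 peaks on chromosomes 1 to 22 and X, and 66 of them lay within 1 kb of the annotated start of the gene. Each list came from chromatin immunoprecipitation and sequencing with 1 antibody in cells grown without treatment, per the labels.

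The libraries labelled e3KRAB1, e3KRAB2, Empty and Control (1 each) were made from H2009, a lung adenocarcinoma line, and are set here against 2 libraries of H2009 with no such label. The other unlabelled libraries came from H358, also lung adenocarcinoma (2), HCC95, squamous cell lung carcinoma (1), BICR31, head and neck squamous by the design text although its sample label reads lung adenocarcinoma (1), and Ishikawa, endometrial carcinoma (2). The labels do not say what e3KRAB, Empty and Control stand for, what DNA if any those cells carried, or whether replicates were separate cultures. Peak names inside the list labelled e3KRAB2 carry the tag krab_Ctrl2, those in the Control list krab_D98 and those in the Empty list krab_NoSg, so these labels are uncertain. The prefix krab thus stands in the Empty and Control lists too.

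H3K27ac is laid down by the acetyltransferases p300 and CBP and marks active promoters and enhancers. At active genes the nucleosomes on either side of the start usually carry the mark, while the start itself tends to be poor in nucleosomes. Housekeeping genes are transcribed in nearly all cells, and their promoters are often taken as a positive control for such marks. ACTB encodes cytoplasmic beta-actin, GAPDH a glycolytic enzyme, EEF1A1 the elongation factor that brings aminoacyl-tRNA to the ribosome, HSP90AB1 the constitutive beta form of the chaperone HSP90, and RPLP0 a protein of the ribosomal stalk. The EEF1A1 promoter with the first intron is also in wide use for driving transgenes in expression constructs.

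The lists differed in form and length, which bears on every value below. The 4 labelled H2009 lists held 1375 to 3250 peaks with median widths of 336 to 356 bases. The unlabelled H2009 and H358 lists, also in the narrowPeak form of 10 columns, held 26412 to 26954 peaks with medians of 347 to 382 bases. The broadPeak lists of HCC95 and BICR31 (9 columns) held 23400 and 42148 peaks with medians of 814 and 893 bases. The 5-column Ishikawa lists held 24384 and 27311 peaks with medians of 1507 and 955 bases. Form moved with cell line, so the effects of line and of peak calling cannot be told apart. A peak list holds no read numbers, so the depth is unknown.

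The gene starts lay on chromosome 7 at 5570232 for ACTB, on chromosome 12 at 6643585 for GAPDH and 120638912 for RPLP0, and on chromosome 6 at 74230755 for EEF1A1 and 44214848 for HSP90AB1 (hg19). The RefSeq promoter table held 4 of the 5 genes, all but ACTB. To show the DNA before the start, where narrowPeak calls left a gap in 4 of 4 unlabelled lists at EEF1A1 and HSP90AB1 and in 1 of 4 at RPLP0, sequence is given for the genes with a RefSeq window starting within 16 bases of that start, judged by the length from the start to the end of the gene. Each line gives the 250 bases before the start, 5′ to 3′, from RefSeq in the GRCh38.p14 build. Capitals mark, on either strand, the TATA box core TATAAA or its variant TATATA, the CCAAT box core CCAAT and the GC box core GGGCGG.
EEF1A1 (chr6:73521033-73521282, minus strand): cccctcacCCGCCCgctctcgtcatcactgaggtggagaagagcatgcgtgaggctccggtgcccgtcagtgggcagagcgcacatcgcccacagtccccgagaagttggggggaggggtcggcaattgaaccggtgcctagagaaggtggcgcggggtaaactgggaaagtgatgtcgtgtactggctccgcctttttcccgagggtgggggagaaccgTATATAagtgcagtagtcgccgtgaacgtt
HSP90AB1 (chr6:44246851-44247100, plus strand): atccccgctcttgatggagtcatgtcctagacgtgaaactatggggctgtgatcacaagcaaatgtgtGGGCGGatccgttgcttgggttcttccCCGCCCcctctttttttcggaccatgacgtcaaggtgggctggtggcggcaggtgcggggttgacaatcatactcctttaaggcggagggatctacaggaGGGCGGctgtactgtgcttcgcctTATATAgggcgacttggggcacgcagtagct
RPLP0 (chr12:120201112-120201361, minus strand): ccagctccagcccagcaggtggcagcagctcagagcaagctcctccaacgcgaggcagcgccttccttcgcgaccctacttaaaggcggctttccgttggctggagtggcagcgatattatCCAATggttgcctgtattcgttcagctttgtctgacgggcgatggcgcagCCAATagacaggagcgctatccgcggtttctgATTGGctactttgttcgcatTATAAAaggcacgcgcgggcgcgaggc

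These 3 sequences had a TATA-type element close to the start, TATATA at -30 in EEF1A1 and -31 in HSP90AB1, and TATAAA at -27 in RPLP0. TATAAA was found in 10.7% of the 35116 RefSeq windows and TATATA, searched for after the sequences had been seen, in 3.73%. RPLP0 had 3 CCAAT elements, at -129, -79 and -47, and no GC box core, while HSP90AB1 had 3 GC box cores, at -182, -155 and -55, and EEF1A1 had 1 at -242. CCAAT was found in 32.0% of all windows and GGGCGG in 42.6%. Of 15 other housekeeping genes, 12 had a RefSeq window. Among these 12 genes TATAAA was found in 2, TATATA in 1, CCAAT in 6 and GGGCGG in 9. HSP90AB1 has 3 RefSeq windows, of which the shown one fits the start used here. The gene length from the single GAPDH window differed by -845 bases, and that window is not shown. Neither TATA form was found in the GAPDH window or in the other HSP90AB1 windows. The GC content was 61.6% in EEF1A1, 56.4% in HSP90AB1 and 58.4% in RPLP0, near the middle of all windows (percentiles 59.2, 46.2 and 51.1).

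All 5 genes had a peak within 1 kb of the start in each of the 8 unlabelled lists. Among merged regions of those lists, 12.1% had a peak in all 8. The 3 kb windows are longer than most regions, so the counts were also taken by region. The windows held 8 merged regions, of which 7 had a peak in all 8 lists. The regions around the starts ran on chromosome 7 from 5568553 to 5571512 for ACTB (2960 bases) and on chromosome 12 from 6640776 to 6646007 for GAPDH (5232 bases). On chromosome 6 they ran from 74229065 to 74234322 for EEF1A1 (5258 bases) and from 44213194 to 44216191 for HSP90AB1 (2998 bases), and on chromosome 12 from 120636896 to 120640200 for RPLP0 (3305 bases). Each was wider than the median of 2150 bases for the 8576 regions found in every unlabelled list.

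None of the 5 genes had a peak in all 12 lists, where 0.294% of merged regions did. Over genes and lists, 46 of 60 combinations had a peak, made up of 6 of 20 in the 4 labelled H2009 lists and 40 of 40 in the unlabelled lists. All 14 absences therefore fell in the short lists.

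**Figure D1:**
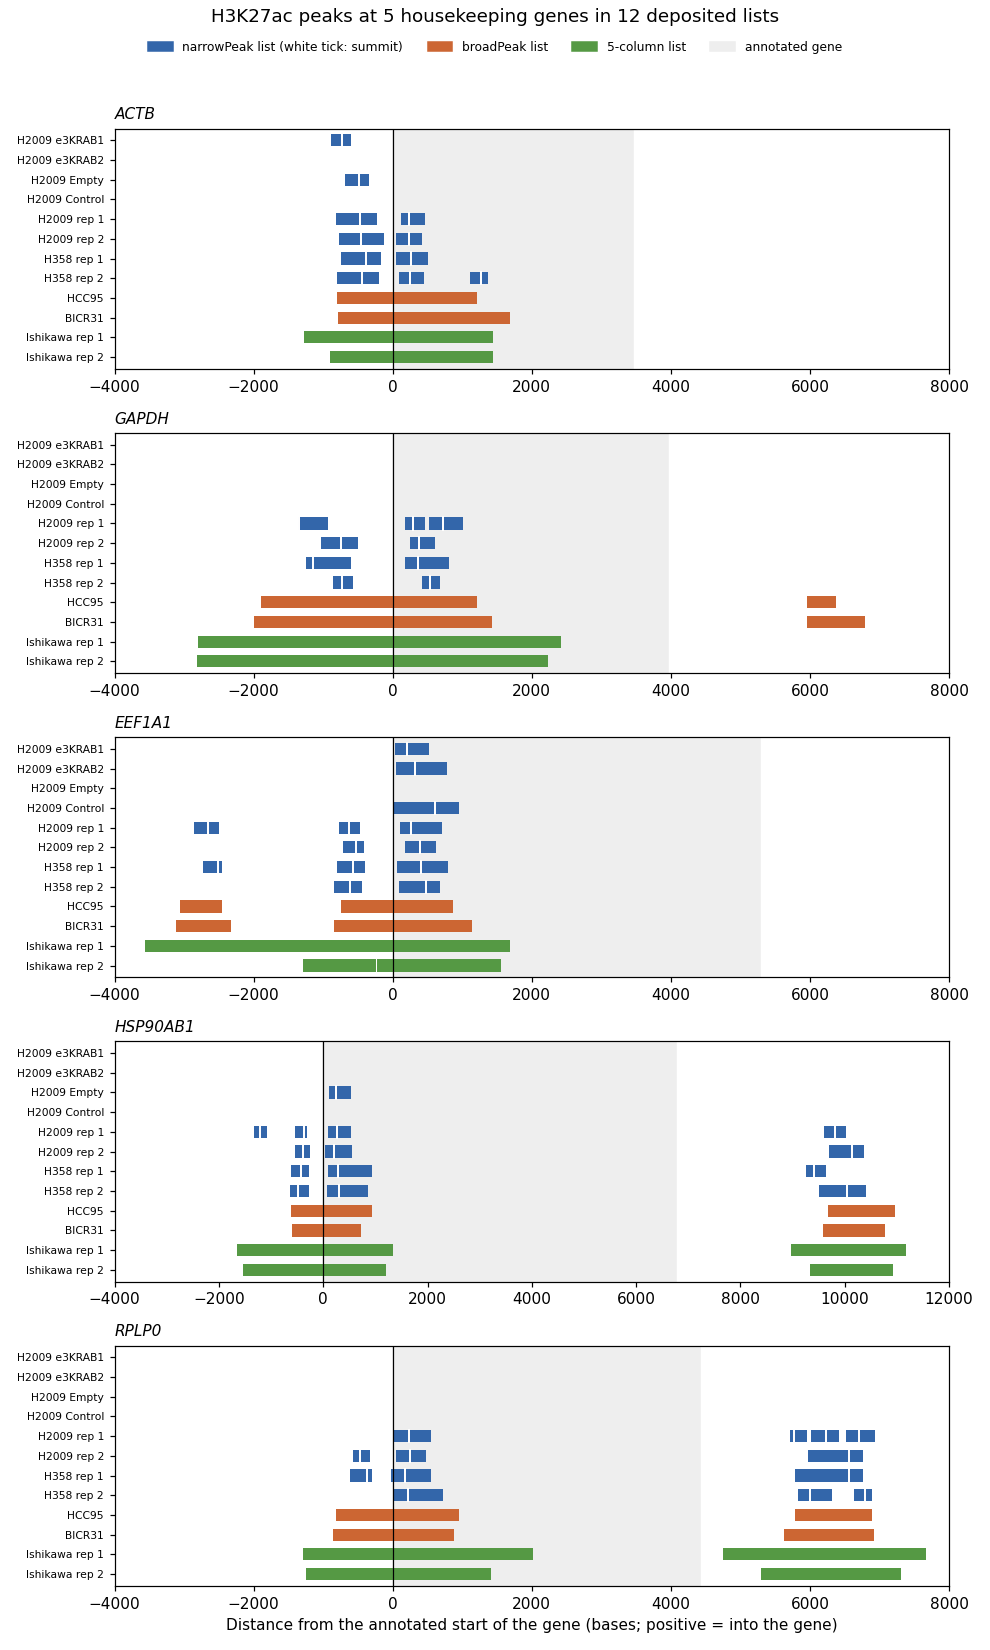
Peaks within 3 kb of each gene (rows, lists; x axis, distance in bases from the annotated start, positive into the gene; grey, annotated gene; white tick, summit in narrowPeak lists). In the unlabelled narrowPeak lists the start lies between separate peaks in 17 of 20 combinations, while each broadPeak and Ishikawa list has 1 peak across the start of all 5 genes.

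The shape of the call at the start differed between file forms. In the 4 unlabelled narrowPeak lists the start lay in a gap between an upstream and a downstream peak in 17 of 20 combinations, and a peak covered it in 2, both at RPLP0. In the HCC95, BICR31 and Ishikawa lists a single peak covered the start of every gene. The gaps had a median of 398 bases and a range of 180 to 1106. They were widest at GAPDH, at 757 to 1106 bases, and ran from 464 to 588 at EEF1A1, from 278 to 398 at HSP90AB1 and from 180 to 350 at ACTB. Upstream EEF1A1 peaks ended between -467 and -404, so the 250 bases shown for that gene lie inside the gap in all 4 lists if the start is the same in both builds, as the equal gene lengths have it.

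In peaks within 1 kb of a start in the 4 unlabelled narrowPeak lists, the summits, the deposited points of highest signal, stood on both sides of the start. The 18 upstream summits lay at a median of -470 bases, with the nearest at -370. The 21 downstream summits lay at a median of 265 bases, with the nearest at 179. None of these fell within 150 bases of a start. Among the same peaks, downstream summits of ACTB sat at 226 to 265 bases and those of RPLP0 at 179 to 247.

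A wide broadPeak call often held several narrow ones elsewhere too. Of the 5 BICR31 peaks over these starts, 5 held 2 or more peaks of H358 replicate 1, 4 of H358 replicate 2, 4 of H2009 replicate 1 and 5 of H2009 replicate 2. Among all BICR31 peaks at least as wide (1340 bases) that held any narrow peak, the shares with 2 or more were 42.1%, 43.4%, 39.8% and 39.6% in the same order. The limit of 1340 bases is the width of the narrowest of the 5, which reached 3421 bases, so the sets were not matched by width. In HCC95, with a limit of 1553 bases, the members gave the same counts. The shares there were 54.0%, 54.5%, 49.9% and 48.5%. With 5 promoters these differences were not tested.

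ACTB had 1 upstream peak in the list labelled e3KRAB1 (295 bases) and 1 in Empty (344 bases), and none in the list labelled e3KRAB2 or in Control. In unlabelled H2009 the upstream peak had 586 and 649 bases and the downstream peak 347 and 377. H358 had upstream peaks of 573 and 603 bases and downstream peaks of 465 and 368. The ACTB peaks of the 2 labelled lists were thus the narrowest upstream calls of the gene among the narrowPeak lists. They stood at percentiles 13.6 (e3KRAB1) and 62.1 (Empty) of fold enrichment, the share of peaks in the same list with a value at or below that of the peak. The higher of the ACTB peaks stood at 24.02 and 57.4 in unlabelled H2009 and at 71.3 and 63.0 in H358. HCC95 had 1 peak of 2000 bases, BICR31 1 of 2467, and Ishikawa 1 of 2726 and 1 of 2354, the last pair at score percentiles of 99.1 and 99.3. Called bases in the window were 980 ± 65.8 in H2009, 1134 ± 135 in H358 and 2540 ± 263 in Ishikawa (mean ± SD, n = 2 each).

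GAPDH had no peak in any of the 4 labelled lists, and its peaks had low fold enrichment in the 6 unlabelled lists that give one. Its peaks in unlabelled H2009 ranked between the percentiles 1.55 and 6.49 of fold enrichment within their lists, and in H358 between 8.93 and 16.6. By width its broadPeak calls were among the widest of all, with 3115 bases in HCC95 (percentile 99.8) and 3421 bases in BICR31 (percentile 99.8). The same HCC95 and BICR31 peaks had fold enrichments of 2.82 and 2.66, at percentiles 3.90 and 1.84. In Ishikawa the GAPDH peaks had 5226 and 5039 bases and score percentiles of 79.96 and 86.05. Replicates placed GAPDH peaks differently in the narrow lists, where the Jaccard index of called bases (those in both lists over those in either) was 0.238 for H2009 and 0.388 for H358, against 0.962 for Ishikawa.

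EEF1A1 was the member found in most labelled lists. A peak just inside the gene had 498 bases in the list labelled e3KRAB1, 736 in the list labelled e3KRAB2 and 941 in Control, and Empty had none. The corresponding peak had 600 and 453 bases in unlabelled H2009. The Control peak ran from 16 to 956 bases past the start with its summit at 614, while those of unlabelled H2009 ran from 108 to 707 and from 175 to 627 with summits at 257 and 391. By fold enrichment it stood at percentile 45.5 in the list labelled e3KRAB1, 74.6 in that labelled e3KRAB2 and 95.8 in Control, against 19.9 and 6.53 in unlabelled H2009. By width it stood at 85.3, 97.9 and 99.3 in the same labelled lists, against 87.0 and 65.5 in unlabelled H2009. By −log10 p it stood at 94.0, 96.0 and 99.4 in the same labelled lists, against 60.9 and 27.4 in unlabelled H2009. Percentiles from lists of such different lengths show no change in the mark. The upstream EEF1A1 peak, of 307 and 296 bases in unlabelled H2009, was absent from all 4 labelled lists.

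Elsewhere EEF1A1 had paired peaks of 726 and 400 bases in H358 replicate 1 and of 590 and 400 in replicate 2, the downstream one the wider each time. The peak across the start had 1613 bases in HCC95 and 1986 in BICR31. Ishikawa replicate 1 had a single peak of 5258 bases that reached to -3567, whereas replicate 2 had a peak of 1777 bases beginning at -222 and an upstream peak of 1056 bases ending at -236. A further peak, between -3123 and -2322, appeared separately in H2009 replicate 1, H358 replicate 1, HCC95 and BICR31.

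HSP90AB1 had a peak of 426 bases in Empty and none in the lists labelled e3KRAB1, e3KRAB2 and Control. Downstream peaks had 450 and 527 bases in unlabelled H2009 and 837 and 800 in H358. Upstream peaks were narrower. They had 241 and 291 bases in H2009, and in H358 they ran from -625 to -270 and from -638 to -281. The Empty peak, at 106 to 531 bases past the start, overlapped the downstream peak of both unlabelled H2009 libraries. HCC95 had 1 peak of 1553 bases (fold enrichment percentile 75.6), BICR31 1 of 1340 (89.0) and Ishikawa peaks of 2998 and 2733 (score percentiles 96.6 and 94.4). Among peaks within 1 kb of a start, those of HSP90AB1 thus held the highest percentile of fold enrichment in HCC95 and BICR31.

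RPLP0 had no peak in any labelled list, and the rank of its start peaks differed between the unlabelled H2009 libraries. Its peak over the start in H2009 replicate 1 had 547 bases and a fold enrichment of 7.49 (percentile 90.5). In H2009 replicate 2 the peaks within 1 kb of the start stood at percentiles 44.4 (upstream, fold enrichment 5.11) and 18.7 (downstream). The highest of the start peaks in H358 had fold enrichments of 7.48 and 6.46 (percentiles 86.8 and 74.5). Widths across the start were 1764 bases in HCC95, 1745 in BICR31, and 3305 and 2650 in Ishikawa. Members beyond the end of the gene reached percentile 80.2 in H2009 replicate 2 and 87.7 in H358 replicate 1, above the start peaks of those lists.

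**Figure D2:**
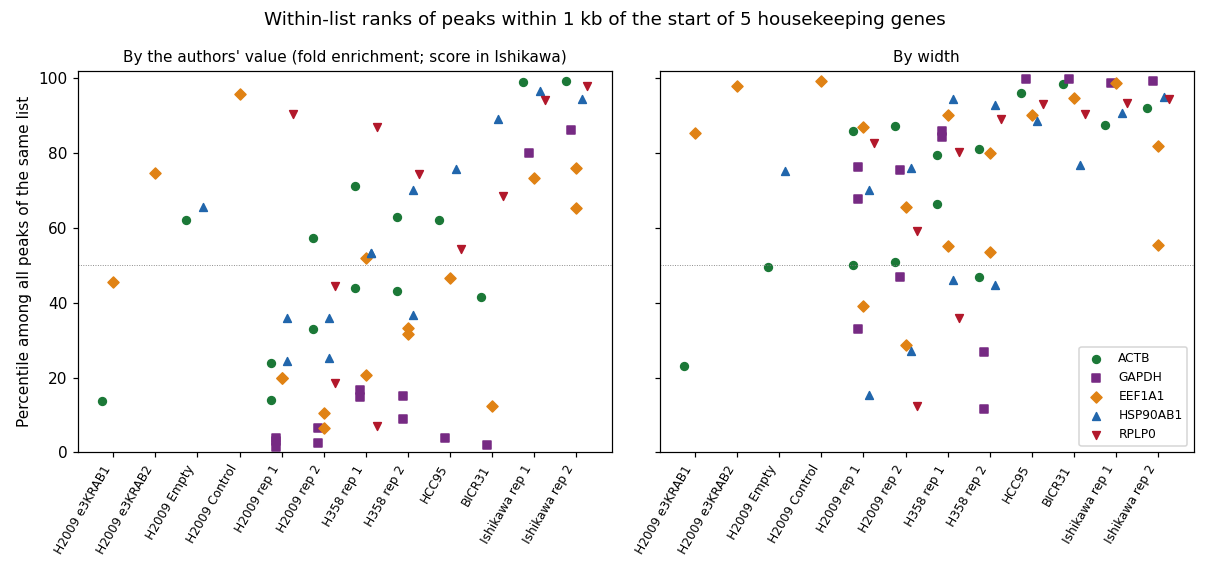
Percentile of each peak within 1 kb of a start among all peaks of its own list (y axis, %), by the authors' value at left and by width at right (x axis, lists; symbols, genes; dotted line, percentile 50). Taking the highest-ranked of these peaks for each gene, GAPDH is lowest by value in the 4 unlabelled narrowPeak and both broadPeak lists but at percentile 99.8 of width in the broadPeak lists.

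In the median, these promoters ranked higher by width than by fold enrichment in the narrowPeak and broadPeak lists. Single peaks went the other way, such as that of HSP90AB1 in BICR31 (89.0 by fold enrichment, 76.7 by width). In the 4 unlabelled narrowPeak lists the 39 peaks within 1 kb of a start had a median percentile of 25.3 by fold enrichment (1.55 to 90.5) and 66.3 by width (11.6 to 94.5). In the broadPeak lists the 10 peaks had medians of 50.5 (1.84 to 89.0) and 93.9 (76.7 to 99.8). In Ishikawa the 11 peaks had medians of 94.2 by score (65.3 to 99.3) and 93.4 by width (55.5 to 99.4). The percentile over all peaks of a list has a median of 50 by construction.

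The order also depended on which deposited value was used. By −log10 p the same peaks had a median percentile of 60.2 in the unlabelled narrowPeak lists (12.6 to 95.7), and the broadPeak ones ran from 70.0 to 97.7. The GAPDH peak of HCC95 stood at 3.90 by fold enrichment and 78.7 by −log10 p. The widest 1% of all peaks had low fold enrichment in the broadPeak lists. Their median percentile was 4.26 in HCC95 and 6.36 in BICR31, against 70.9 to 75.2 in the unlabelled narrowPeak lists. Over all peaks, the Spearman rank correlation of width with fold enrichment was -0.127 in HCC95 and 0.011 in BICR31. Taking for each gene the peak that covers the start, or else the widest in the window, the median percentile over the 8 unlabelled lists was 90.1 by width and 53.9 by the authors' value. The latter pools unlike measures, fold enrichment in the narrowPeak and broadPeak lists and the score in Ishikawa. The peak so chosen lay beyond the gene end for HSP90AB1 in the second replicates of H2009 and H358 and for RPLP0 in the second of H2009. With the peak nearest to the start the medians were 88.7 and 43.5.

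By the highest-ranked peak of each gene within 1 kb of its start, GAPDH had the lowest percentile of fold enrichment among the 5 genes in 6 of 6 unlabelled lists of the narrowPeak and broadPeak forms, and EEF1A1 came next in each of them. In both Ishikawa lists EEF1A1 was lowest and GAPDH next. Among the same start peaks the highest place was taken by RPLP0 in H2009 replicate 1 and both H358 lists, by HSP90AB1 in HCC95 and BICR31, and by ACTB in H2009 replicate 2 and both Ishikawa lists. By −log10 p, which the Ishikawa lists lack, the order of the start peaks differed. GAPDH was then lowest in H2009 replicate 1, both H358 lists and BICR31. EEF1A1 was lowest in H2009 replicate 2 (percentile 39.7), and RPLP0 in HCC95 (74.9, against 78.7 for GAPDH). EEF1A1 came next after GAPDH only in H358 replicate 2 and BICR31. ACTB was highest in H2009 replicate 2, both H358 lists and HCC95. With members farther from the start included the order by fold enrichment was another. In BICR31 the highest EEF1A1 peak (percentile 12.3) then lay below that of GAPDH (13.7), and in HCC95 RPLP0 (89.5) lay above HSP90AB1 (75.6). No test was made, since values within a list come from 1 library.

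**Figure D3:**
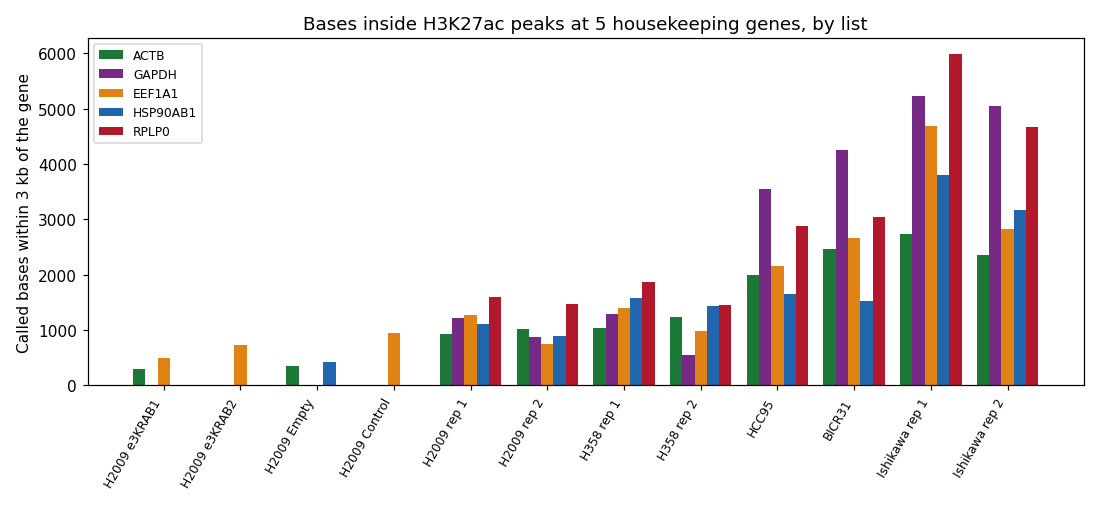
Bases inside peaks within 3 kb of each gene (y axis, count; x axis, lists; colours, genes; 1 library per bar). Sums over the 5 genes run from 736 to 941 in the labelled H2009 lists, from 5007 to 7159 in the unlabelled narrowPeak lists and from 12225 to 22415 in the other lists.

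Agreement of called bases in the 5 windows was higher between lists of 1 file form than across forms, a difference that was not tested. The mean Jaccard index was 0.638 between replicates (H2009 0.514, H358 0.594, Ishikawa 0.805) and 0.446 between different lines. This difference of 0.192 had an exact one-sided permutation p of 0.0286 over 420 assignments. Pairs of different lines in the same form had a mean of 0.629 (5 pairs), against 0.400 in different forms (20 pairs), and HCC95 with BICR31 had the highest value of all pairs at 0.837.

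Among the 4 narrowPeak lists alone, replicates had a mean of 0.554 and H358 with H2009 one of 0.577, a difference of -0.0231 (exact permutation p = 1.0, where the smallest p is 0.333). Over the whole of these lists the means were 0.424 and 0.351. Without H358 replicate 1 the p over the 7 other lists was 0.0667, without H358 replicate 2 it was 0.0762, without Ishikawa replicate 1 it was 0.238 and without Ishikawa replicate 2 it was 0.171, each an exact permutation p. The difference itself was 0.0793 without Ishikawa replicate 1 and 0.0974 without replicate 2.

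Over the 5 windows the labelled lists had 793 (e3KRAB1), 736 (labelled e3KRAB2), 770 (Empty) and 941 (Control) called bases, against 6119 and 5007 in unlabelled H2009. All 4 lay below both unlabelled libraries, a mean difference of -4753 bases (exact two-sided permutation p = 0.0667, the smallest p for 4 against 2). The labelled lists were shorter throughout. Per Mb of all called bases, the windows held 880.3, 1399, 1012 and 717 bases in these lists, all above the 564 and 438 in unlabelled H2009. The labelled values rest on only 2, 1, 2 and 1 member peaks in the same order. Cut to the 1375 highest peaks by fold enrichment, neither unlabelled H2009 list kept a member, and 5 combinations were kept in the labelled lists. That cut kept 5.11% and 5.21% of the unlabelled H2009 lists but 42.3% to 100% of the labelled ones, so nothing about the members is read from it.

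The difference between e3KRAB lists and Empty with Control was within the spread of these libraries, in a design too small to reach the threshold. Called bases were 764.5 ± 40.3 with e3KRAB labels and 855.5 ± 121 in Empty and Control (SD, n = 2 each; exact two-sided permutation p = 0.667, the smallest p being 0.333). The direction rests on labels that the peak-name tags put in doubt. Which genes had a peak did vary, with ACTB and EEF1A1 in e3KRAB1, EEF1A1 in the list labelled e3KRAB2, ACTB and HSP90AB1 in Empty, and EEF1A1 in Control.

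**Figure D4:**
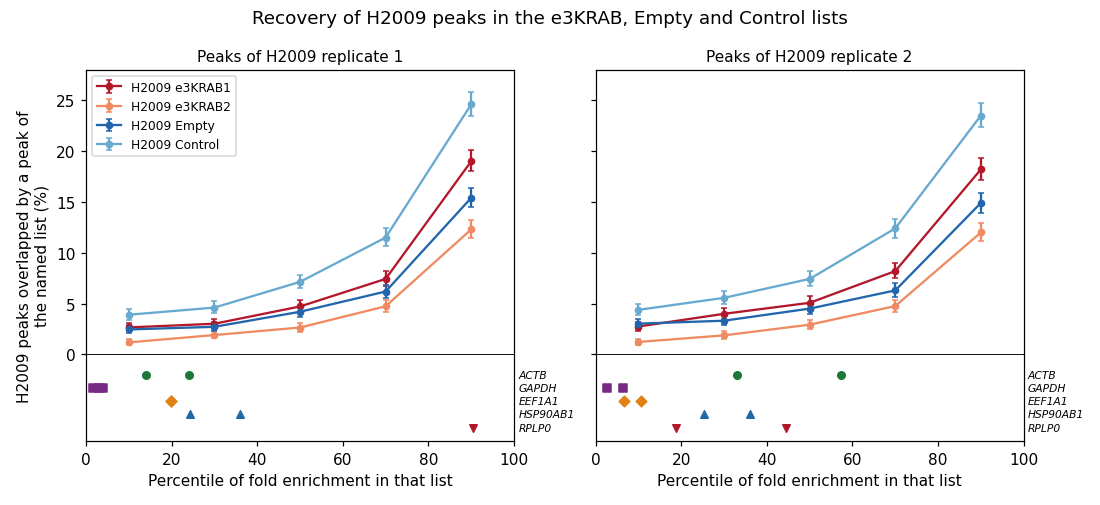
Share of unlabelled H2009 peaks that overlap a peak of each labelled list (y axis, %; bars, 95% Wilson intervals for counting error) by percentile of fold enrichment in 5 bins (x axis), with the peaks of the 5 genes within 1 kb of a start placed by their percentile below the zero line. For replicate 1 the share is 1.19% to 3.91% in the lowest bin and 12.3% to 24.6% in the highest, and the GAPDH and EEF1A1 start peaks lie below percentile 20.

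Recovery of the members in the short lists lay near that of other regions. Of 11 member regions with a peak in both unlabelled H2009 libraries, 2 had a peak in the list labelled e3KRAB1, 1 in that labelled e3KRAB2, 2 in Empty and 1 in Control. The shares over all 16974 such regions were 11.1%, 6.81%, 9.28% and 15.5%. Of single H2009 peaks, 18.3% in replicate 1 and 18.9% in replicate 2 overlapped a peak of at least 1 labelled list. Among the lowest 20% by fold enrichment the shares were 7.9% and 8.97%, and among the highest 10% they were 49.0% and 46.5%. Of the 5 genes, EEF1A1 had a peak in 3 of the 4 labelled lists, ACTB in 2, HSP90AB1 in 1, and GAPDH and RPLP0 in 0. The EEF1A1 lists were those labelled e3KRAB1, e3KRAB2 and Control. All 3 overlapped 1.3% of single H2009 peaks in replicate 1 and 1.34% in replicate 2. Among the lowest 20% by fold enrichment, where the downstream EEF1A1 peaks stood, the shares were 0.261% and 0.189%. By width those EEF1A1 peaks stood higher, at percentiles 87.0 and 65.5. Between width percentiles 80 and 100 of replicate 1, these lists singly overlapped 19.6%, 12.5% and 27.1% of peaks. Between 60 and 80 of replicate 2 they overlapped 9.24%, 5.6% and 13.6%. The share in all 3 lists was not counted by width. EEF1A1 was singled out after the counts were seen, and its difference from other peaks was not tested.

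The 27 members farther than 1 kb from a start lay mostly beyond the end of the gene. Past HSP90AB1, whose next protein-coding gene downstream is SLC35B2 in RefSeq order, a peak between 8970 and 11171 bases from the start was found in all 8 unlabelled lists. Past RPLP0, where the next is GCN1, 11 peaks between 4752 and 7673 bases from its start were found in all 8 as well, with value percentiles from 7.04 to 96.9. Beyond GAPDH, with IFFO1 downstream, only HCC95 and BICR31 had a peak, between 5953 and 6788 bases from the start. The other 6 were the 4 upstream EEF1A1 peaks already given, 1 inside ACTB in H358 replicate 2 and 1 upstream of HSP90AB1 in H2009 replicate 1. None of the 27 was in a labelled list.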

How the data were processed

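Chromatin was precipitated with an H3K27ac antibody and sequenced, per the labels' protocols. BWA and the hg19 build are named in the submitters' processing notes. No source used here gives the peak caller, though Ishikawa peak names begin with MACS. The narrowPeak and broadPeak lists as deposited by the authors hold a fold enrichment ratio, −log10 p, −log10 q and a score, which was 10 times the −log10 q without its decimals in all but 4 peaks. A summit offset is deposited in the narrowPeak lists as well, a value of another kind. The Ishikawa lists hold 1 deposited score per peak, starting at 50.0. These are the authors' values, used here to rank peaks within a list. Each library has a list of its own.

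Peaks on chromosomes 1 to 22 and X were kept. A member overlapped, by 1 base, the window of a gene with 3 kb flanks. Start peaks lay within 1 kb of the start, a distance chosen after the data had been seen. Overlapping peaks were merged into regions. Tests were exact permutations over libraries, and the overlap, merging, ranking, Jaccard and permutation steps were tested on simulated data. All 5 genes are named by rule. Members and lists were chosen with earlier results of these data known. Peaks at other housekeeping genes were not located, for lack of an annotation in the build of the files. Only the RefSeq promoter windows of those genes were searched, for the motifs. As nothing says that replicates were separate cultures, p-values may reflect technical spread alone, and intervals cover counting error only. Python 3.11.15, NumPy 2.4.6, pandas 2.3.3 and SciPy 1.17.1 were used.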

Additional observations from a re-analysis of the deposited data

How the results depend on the processing

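Presence at the 5 genes did not move with flanks of 1 or 5 kb or when 50% of a peak had to lie inside the window, with 46 combinations in each. It fell to 30 in the higher-ranked 50% of each list and to 9 with lists of equal length. The count of genes with a peak in every list was 0 over 12 lists and 5 over the 8 unlabelled ones, a setting added after seeing the data. The median percentile by width was 83.85 in the higher-ranked 50%, 86.0 with equal length, 87.1 to 93.1 without 1 replicate and 98.4 with all called bases of the window. The median percentile by the authors' value was 59.6 with equal length, 81.0 by −log10 p in 6 lists and 43.5 with the peak nearest to the start (added after seeing the data). The Jaccard difference ran from 0.0793 to 0.247 without 1 replicate and turned to -0.0231 in the 4 narrowPeak lists, where form was held fixed. The difference in called bases between labelled and unlabelled H2009 turned to 736 with equal length, where only 5.11% and 5.21% of the unlabelled lists and none of their members were kept. No paired analysis was possible because the groups compared share fewer than 2 replicate numbers. List length limits what the short lists can show.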
